A study of Homo sapiens with 27 samples.

Results

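The Notch receptors NOTCH1, NOTCH2 and NOTCH3, the ligands DLL1, DLL3, DLL4, JAG1 and JAG2, and the target genes HES1 and HES5 were followed while human embryonic stem cells were turned into progenitors of photoreceptors. These 10 genes were picked by symbol among the 44852 genes of the count table, each matched through a single Ensembl gene ID. RNA was sequenced from H1, an established human embryonic stem cell line, on 3 laminin coatings at days 2, 22 and 32, with 3 libraries in each of the 9 groups and 27 libraries in all. Laminins are basement membrane proteins, and each coating is named here by its leading isoform, LN523, LN323 or LN521, because the sources differ on which second laminin was mixed in. The day 2 cultures are labelled as undifferentiated cells, and the day 22 and day 32 cultures as photoreceptor progenitors (the sample titles number these days 0, 20 and 30). From day 2 all cultures received CKI-7 and SB431542, inhibitors of casein kinase 1 and of TGF-beta receptor signalling, and then a photoreceptor medium with 10 µM DAPT, 0.5 µM retinoic acid, BDNF, CNTF, N2 and B27 without vitamin A. The photoreceptor medium started at day 7 per the series description, and the published protocol gives a later start. DAPT is an inhibitor of gamma-secretase, the protease that releases the active fragment of Notch receptors. Every culture of days 22 and 32 had DAPT and no culture of day 2 did, so an effect of the inhibitor and of time cannot be told apart here. The replicates are numbered as sequencing lanes, and nothing states that they are separate cultures, so the p-values measure only the spread between these libraries, which may be technical. That spread was larger than counting error, with a mean chi-square of 13.3 to 205 per gene between replicates of a group.

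Notch is a cell surface receptor that is cut when a ligand of the Delta or Jagged family on a neighbouring cell binds it. The released intracellular domain enters the nucleus, joins the DNA-binding protein RBPJ and its co-activator Mastermind, and switches on HES and HEY genes. HES proteins are basic helix-loop-helix repressors that hold down proneural genes, and in the developing retina this keeps progenitors dividing, while cells that express proneural genes and Delta ligands leave the cycle and become neurons, photoreceptors among them.

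The 250 bases upstream of the start site are shown for HES1 and HES5, because these are the targets among the 10 genes and the only members whose upstream window held the core of the RBPJ site. Sequences are from RefSeq on GRCh38.p14, on the coding strand and 5′ to 3′, with each match of the RBPJ core, TGGGAA or its reverse complement TTCCCA, in capitals.
HES1, chr3:194135898-194136147, plus strand: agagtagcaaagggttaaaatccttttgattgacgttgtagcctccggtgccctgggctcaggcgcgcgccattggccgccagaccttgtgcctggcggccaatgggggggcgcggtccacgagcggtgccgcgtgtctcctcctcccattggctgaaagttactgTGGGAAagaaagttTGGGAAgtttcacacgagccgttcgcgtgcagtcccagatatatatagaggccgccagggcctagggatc
HES5, chr1:2530264-2530513, minus strand: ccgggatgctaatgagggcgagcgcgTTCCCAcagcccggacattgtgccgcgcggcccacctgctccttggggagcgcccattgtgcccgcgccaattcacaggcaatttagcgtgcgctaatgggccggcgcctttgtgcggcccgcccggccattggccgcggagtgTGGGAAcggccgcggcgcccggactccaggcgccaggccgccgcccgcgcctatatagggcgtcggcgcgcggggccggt
In HES1 the matches lay 84 to 79 and 70 to 65 bases before the start, both on the coding strand. In HES5 they lay 224 to 219 bases before the start, on the opposite strand, and 80 to 75 bases before it, on the coding strand. The windows follow RefSeq start sites, which for NOTCH2 lies 31117 bases from the start of the GENCODE gene. The RefSeq table held upstream sequence for 8 of the 10 genes, without DLL1 and DLL3, and the other 6 of those 8 (NOTCH1, NOTCH2, NOTCH3, DLL4, JAG1 and JAG2) had no match in this window. Of 27305 promoters of the same length, 21.1% held at least 1 match and 2.9% held 2 or more. The N box CACNAG, searched on both strands, a sequence that HES proteins can bind, occurred 3 times in the HES1 window, 1 time in that of NOTCH3 and in 32.0% of all windows. The E box CANNTG, the site of many proneural factors, was found in 2 members, JAG2 and HES5, and in 62.2% of all windows. A match of letters does not show that a factor is bound there.

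Levels are given as CPM, counts scaled to the library's effective size after TMM normalisation, for a gene across libraries, and as TPM, which also divides by transcript length, between genes. The libraries held total counts between 25620624 and 47340990. Of the counts above 0, 68.8% were even, so the mates of a read pair may have been counted apart, and low counts may then stand for fewer fragments, which was not tested. The stem cell identity of day 2 and the retinal identity of later days were checked with gene lists. The summed level of 6 pluripotency genes was 5421 to 9588 CPM at day 2, 38.7 to 408 CPM at day 22 and 8.81 to 63.1 CPM at day 32. The 6 retinal progenitor genes were all called higher on all 3 matrices by day 22, and their sum went from 3.56 to 6.91 CPM at day 2 to 922 to 1974 CPM at day 22. Of 6 photoreceptor precursor genes, CRX, PRDM1 and RXRG were called higher and OTX2 lower on all 3 matrices by day 22, and the list summed to 71.7 to 172 CPM at day 2, 20.6 to 96.0 CPM at day 22 and 50.4 to 190 CPM at day 32. Recoverin (RCVRN) did not exceed 4.48 CPM and NRL, the rod determinant, did not exceed 3.40 CPM at day 32. Replicate 1 of LN521 stood apart at both later days: 6 neuronal genes summed to 272 CPM against 38.0 and 15.4 CPM at day 22, and to 426 CPM against 94.2 and 90.7 CPM at day 32. Its 6 pluripotency genes were also higher, at 408 CPM against 160 and 111 CPM at day 22, and 63.1 CPM against 27.4 and 18.6 CPM at day 32. Among them POU5F1 had 73.8 CPM against 1.33 and 1.48 CPM at day 22, and 14.7 CPM against 1.70 and 1.23 CPM at day 32. Values that rest on those libraries are given with and without them.

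**Figure D1:**
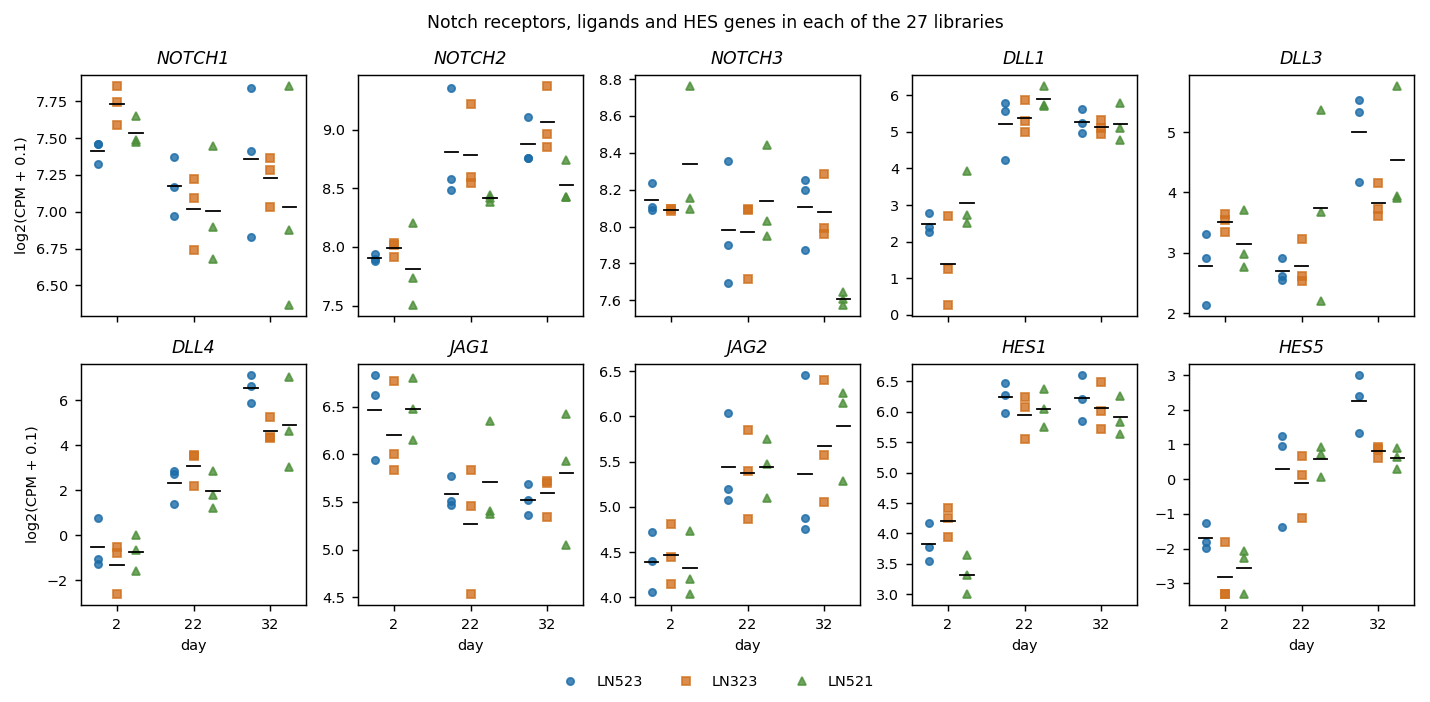
Level of each gene, as log2(CPM + 0.1) on the vertical axis, in each library of days 2, 22 and 32, with colour and marker for the matrix and a black bar for the mean of the 3 libraries of a group. The group means of DLL1, DLL4, HES1 and HES5 are higher at day 22 than at day 2 on every matrix, and DLL4 is highest at day 32, where replicate 1 of LN521 lies with the LN523 libraries.

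Between day 2 and day 22, DLL1, DLL4, NOTCH2, JAG2, HES1 and HES5 rose and JAG1 fell on all 3 matrices. A gene is called here where its p from the quasi-likelihood test of edgeR, adjusted by Benjamini-Hochberg across the whole table, was under 0.05. Of the 10 genes, 7 were called on LN523, 8 on LN323 and 7 on LN521, where 21.7%, 22.7% and 18.9% of all genes were called. On each matrix 6 of them were higher at day 22, beside 11.5%, 11.8% and 10.8% of all genes, and 1, 2 and 1 were lower, beside 10.2%, 10.9% and 8.09%. The median change of the 10 genes was 0.95, 0.87 and 1.03 on the log2 scale, against 0.02, 0.02 and -0.02 over all genes. NOTCH3 and DLL3 passed on no matrix, and NOTCH1 passed on LN323 alone. The 3 matrices have separate day 2 and day 22 libraries, but they share lanes and one estimate of the spread. Bulk RNA cannot tell fewer cells of a type from less RNA per cell.

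Among the receptors, NOTCH2 alone was called on all 3 matrices. Positions are on GRCh38 from the GENCODE 44 annotation. NOTCH2 (ENSG00000134250, chr1:119911553-120100779, minus strand) had 236, 238 and 246 CPM in the LN523 libraries of day 2 and 359, 654 and 383 CPM at day 22. On LN323 it went from 262, 259 and 242 CPM to 373, 595 and 387 CPM, and on LN521 from 294, 213 and 181 CPM to 347, 343 and 334 CPM. The groups did not overlap on any matrix, and the lane 2 libraries of LN523 and LN323 were the highest of day 22. The log2 change was 0.92 ± 0.20 (SE, edgeR adjusted p = 0.000201) on LN523, 0.81 ± 0.20 (adjusted p = 0.00104) on LN323 and 0.58 ± 0.19 (adjusted p = 0.0274) on LN521. The LN521 call was lost in 4 of the 6 fits that left out 1 of its libraries, at 0.45 and 0.47 without day 2 replicates 2 and 3 and at 0.60 and 0.57 without day 22 replicates 1 and 3. It was also lost with DESeq2, with RLE scaling, with at least 10 counts in every library, without lane 2 and in both limma fits. In all, 10 of 16 alternative fits did not keep it. Copies of part of NOTCH2 elsewhere in the genome, the NOTCH2NL genes and their NBPF fusions, match 8.8% of its transcript at 95% identity or more, so its reads may be shared with them.

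NOTCH1 (ENSG00000148400, chr9:136494433-136546048, minus strand) ranged from 160 to 232 CPM over the 9 libraries of day 2 (median 180), from 102 to 174 at day 22 (median 136) and from 82.3 to 231 at day 32 (median 156). Its log2 change by day 22 was -0.24 ± 0.23 on LN523 (edgeR adjusted p = 0.595), -0.70 ± 0.23 on LN323 (adjusted p = 0.0168) and -0.52 ± 0.23 on LN521 (adjusted p = 0.111). The LN323 fall lost its call without day 2 replicate 3 (-0.49), day 22 replicate 1 (-0.37) or day 22 replicate 2 (-0.66). It also lost it on the TPM scale, at -0.37 with limma and an adjusted p of 0.38 or 0.40 depending on the pseudocount. NOTCH3 (ENSG00000074181, chr19:15159038-15200995, minus strand), a receptor with a known role in mural cells of blood vessels, ranged from 271 to 435 CPM at day 2, 207 to 347 CPM at day 22 and 190 to 311 CPM at day 32, and its groups overlapped between days 2 and 22 on every matrix. At day 32 its 3 LN521 libraries, at 195, 190 and 200 CPM, lay below all LN521 libraries of day 22, yet the decrease was not called. The summed level of 5 mural cell genes ranged from 104 to 172 CPM at day 2, 174 to 443 CPM at day 22 and 173 to 722 CPM at day 32. The 5 genes did not move together. By day 22 PDGFRB and ACTA2 were called higher and CSPG4 lower on all 3 matrices, and RGS5 and MCAM were called on none. The part of mural cells in the NOTCH3 level was not tested.

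Set side by side in TPM, NOTCH3 held the largest share of the summed receptor RNA in 9 of 9 libraries at day 2, with a median of 48.8% and a range of 43.5 to 55.0%. NOTCH2 had the smallest median share at day 2 (22.0%, range 18.2 to 24.3%). By day 22 the NOTCH2 share lay between 27.5 and 44.5% (median 36.9%), above every day 2 library. NOTCH2 led in 2 libraries at day 22 and in 6 at day 32, and NOTCH3 led in the others. NOTCH1 held a median of 30.1%, 20.0% and 20.7% at the 3 days.

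**Figure D2:**
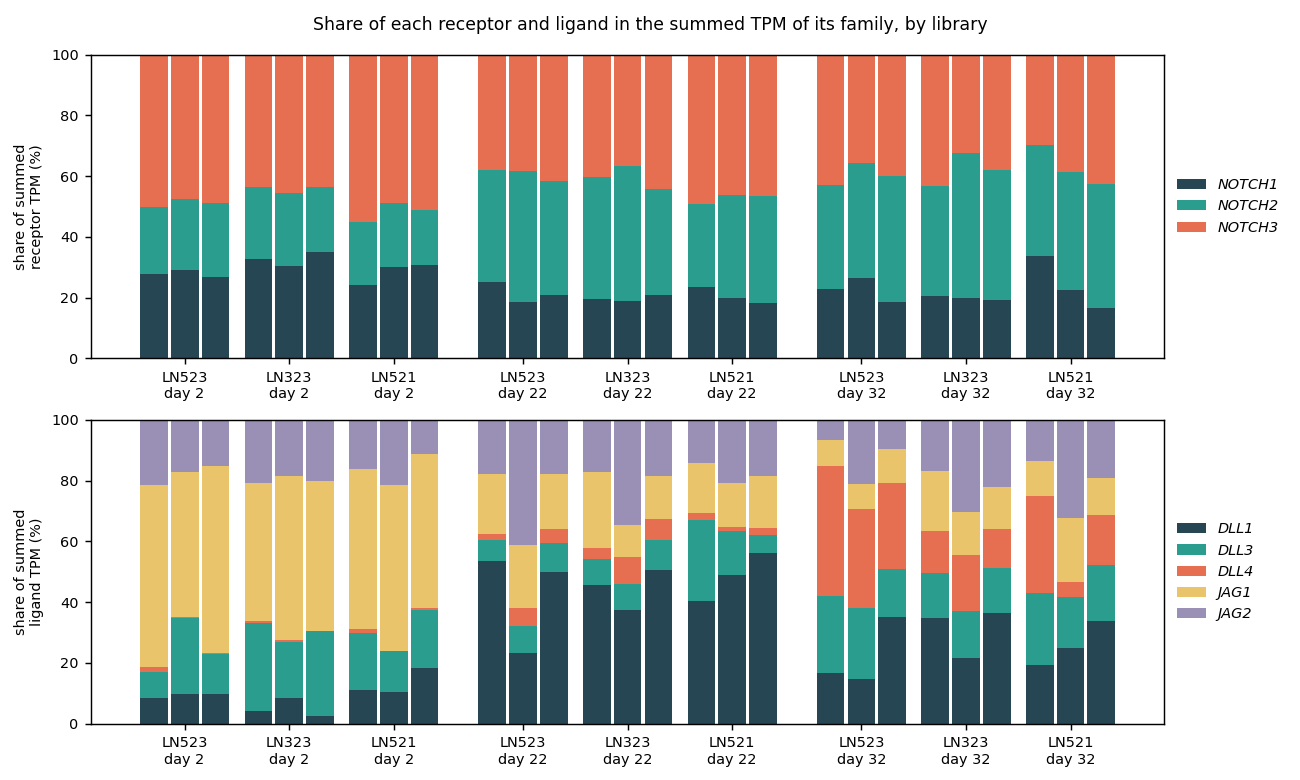
Share of each receptor (top) and each ligand (bottom) in the summed TPM of its family, in percent on the vertical axis, with 1 bar for each of the 27 libraries, grouped by matrix and day. JAG1 is the largest ligand in all 9 libraries of day 2, DLL1 in 8 of 9 libraries of day 22, and at day 32 the ligands are divided, with DLL4 largest in 3 libraries.

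Among the ligands the day 2 cultures were dominated by JAG1 and the day 22 cultures by DLL1. DLL1 (ENSG00000198719, chr6:170282206-170306565, minus strand), a Delta ligand made by cells on their way to becoming neurons, had 5.18, 4.71 and 6.83 CPM on LN523 at day 2 and 55.3, 18.8 and 47.5 CPM at day 22. On LN323 it rose from 2.26, 6.40 and 1.09 CPM to 39.1, 31.5 and 58.3 CPM, and on LN521 from 5.60, 6.50 and 15.1 CPM to 76.7, 52.6 and 52.3 CPM. All day 22 libraries lay above all day 2 libraries, and LN523 replicate 2 was the lowest of day 22. The log2 change was 2.83 ± 0.39 (SE, edgeR adjusted p = 6.9e-08) on LN523, 3.59 ± 0.41 (adjusted p = 4.46e-10) on LN323 and 2.78 ± 0.39 (adjusted p = 1.13e-07) on LN521. These calls held under every alternative that was run. At day 32 the gene stood at 27.3 to 54.7 CPM (median 34.5), and no change from day 22 was called. Of the exonic bases of DLL1, 9.7% lie under FAM120B on the opposite strand, and the strand setting of the counting is not given in the sources used here.

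DLL4 (ENSG00000128917, chr15:40929340-40939073, plus strand), the Delta ligand that marks newborn retinal neurons and photoreceptor precursors and also sprouting vessels, rose to day 22 on all 3 matrices and again to day 32 on LN523 and LN521. At day 2 it had 1.61, 0.308 and 0.386 CPM on LN523, 0.481, 0.602 and 0.0608 CPM on LN323, and 0.891, 0.232 and 0.526 CPM on LN521. At day 22 it had 2.55, 7.18 and 6.52 CPM on LN523, 4.49, 11.4 and 11.8 CPM on LN323, and 7.24, 2.18 and 3.40 CPM on LN521. At day 32 it had 142, 100 and 58.7 CPM on LN523, 19.7, 38.0 and 20.6 CPM on LN323, and 132, 7.98 and 24.7 CPM on LN521. The days did not overlap on any matrix, while on LN521 replicate 1 was far above both other libraries of day 32. The rise to day 22 was 3.12 ± 0.60 on the log2 scale on LN523 (SE, edgeR adjusted p = 4.27e-05), 4.79 ± 0.64 on LN323 (adjusted p = 2.75e-08) and 2.93 ± 0.59 on LN521 (adjusted p = 0.00012). The level at day 2 rested on 2 to 62 counts a library, and with limma on log2(TPM + 1) the LN521 rise of 1.58 was not called (adjusted p = 0.091). The share of DLL4 in the summed ligand TPM had a median of 0.43% at day 2, 3.56% at day 22 and 18.3% at day 32, where it reached 42.8% in an LN523 library.

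DLL3 (ENSG00000090932, chr19:39498895-39508481, plus strand), a Delta protein that acts inside the cell and is linked to neurogenesis, ranged from 4.27 to 13.0 CPM at day 2. At day 22 it had 6.02, 5.76 and 7.43 CPM on LN523, 6.01, 5.69 and 9.23 CPM on LN323, and 41.2, 12.7 and 4.50 CPM on LN521. The single high value was LN521 replicate 1, whose neuronal genes were also the highest of that day. The log2 changes by day 22 were -0.19 ± 0.43, -0.66 ± 0.43 and 0.90 ± 0.44 on LN523, LN323 and LN521 (edgeR adjusted p = 0.924, 0.355 and 0.182). Without replicate 1 of day 22 the LN521 value was -0.04, and without replicate 3 it was 1.51 and called (adjusted p = 0.00785).

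JAG1 and JAG2, the ligands of the Jagged (Serrate) family, moved in opposite directions by day 22. JAG1 (ENSG00000101384, chr20:10637684-10673999, minus strand) ranged from 57.1 to 114 CPM at day 2 (median 89.0), from 23.0 to 81.7 at day 22 (median 44.2) and from 33.0 to 85.5 at day 32 (median 51.3). The day 2 and day 22 groups overlapped on LN521 alone. The log2 change was -0.93 ± 0.28 (SE, edgeR adjusted p = 0.00901) on LN523, -0.95 ± 0.28 (adjusted p = 0.00807) on LN323 and -0.78 ± 0.28 (adjusted p = 0.0374) on LN521. On the TPM scale limma gave -0.56 to -0.55 on LN523, -0.59 to -0.56 on LN323 and -0.74 to -0.72 on LN521, with no call on any matrix. Without the lane 2 libraries the changes on LN323 and LN521 were -0.28 and -0.64, neither called. Leaving out a single library ended the call at -0.62, -0.78 and -0.81 on LN523 (day 2 replicate 3, day 22 replicates 1 and 3). On LN323 it did so at -0.51 and -0.52 (day 2 replicate 2, day 22 replicate 2), and on LN521 at -0.76, -0.52, -0.57 and -0.60 (day 2 replicates 2 and 3, day 22 replicates 2 and 3). The share of JAG1 in the summed ligand TPM went from a median of 52.8% at day 2 to 17.1% at day 22 and 12.2% at day 32, and its highest share at day 22, 25.1%, lay below its lowest at day 2, 45.5%.

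JAG2 (ENSG00000184916, chr14:105140982-105168824, minus strand) had 26.3, 16.6 and 21.0 CPM on LN523 at day 2 and 36.5, 65.7 and 33.7 CPM at day 22. On LN323 it went from 21.7, 28.0 and 17.7 CPM to 29.0, 57.7 and 42.2 CPM, and on LN521 from 16.3, 26.5 and 18.3 CPM to 53.9, 44.4 and 34.0 CPM. The day 22 libraries were higher without overlap on each matrix, and replicate 2 was the highest on LN523 and LN323. The log2 change was 0.97 ± 0.29 (SE, edgeR adjusted p = 0.0088) on LN523, 0.93 ± 0.29 (adjusted p = 0.0112) on LN323 and 1.16 ± 0.29 (adjusted p = 0.0018) on LN521. Without the lane 2 libraries the LN523 rise was 0.58 (adjusted p = 0.176), without day 2 replicate 2 it was 0.63 (adjusted p = 0.171), and without day 22 replicate 3 the LN323 rise was 0.84 (adjusted p = 0.0541). Of the exonic bases of JAG2, 7.3% are shared with the gene ENSG00000257622 on the same strand.

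HES1 (ENSG00000114315, chr3:194136148-194138732, plus strand), the HES gene made by most dividing progenitors, rose on every matrix and stayed up. At day 2 it had 13.6, 11.6 and 17.8 CPM on LN523, 21.2, 15.3 and 18.9 CPM on LN323, and 7.88, 12.4 and 9.87 CPM on LN521. At day 22 it had 89.0, 63.1 and 77.4 CPM on LN523, 46.7, 75.3 and 67.3 CPM on LN323, and 82.6, 65.7 and 53.7 CPM on LN521. Every library of day 22 was above every library of day 2. The log2 change was 2.42 ± 0.25 on LN523 (SE, edgeR adjusted p = 3.97e-11), 1.79 ± 0.25 on LN323 (adjusted p = 6.03e-08) and 2.73 ± 0.26 on LN521 (adjusted p = 1.66e-12), and it was called under every alternative that was run. At day 32 the range was 49.6 to 97.8 CPM (median 64.3), with no call against day 22.

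HES5 (ENSG00000197921, chr1:2528745-2530263, minus strand), a HES gene of neural and retinal progenitors whose expression is held to depend closely on Notch activity, stayed low. At day 2 it had 0.313, 0.185 and 0.154 CPM on LN523, 0, 0 and 0.182 CPM on LN323, and 0, 0.139 and 0.105 CPM on LN521. At day 22 it had 1.85, 0.285 and 2.29 CPM on LN523, 0.989, 0.364 and 1.5 CPM on LN323, and 1.54, 0.947 and 1.81 CPM on LN521. The days overlapped on LN523, where replicate 2 was low, and on no other matrix. The rise was called on all 3, at 2.57 ± 0.76 (SE, edgeR adjusted p = 0.00839), 4.00 ± 0.87 (adjusted p = 0.000274) and 3.96 ± 0.82 (adjusted p = 0.000191), but day 2 held at most 12 counts a library, so the size of the fitted changes depends on the prior count. Without LN523 day 2 replicate 3 that call was lost, at 2.25 (adjusted p = 0.0653). In TPM, HES1 made up 94.9 to 99.3% of the sum of HES1 and HES5 at day 22.

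**Figure D3:**
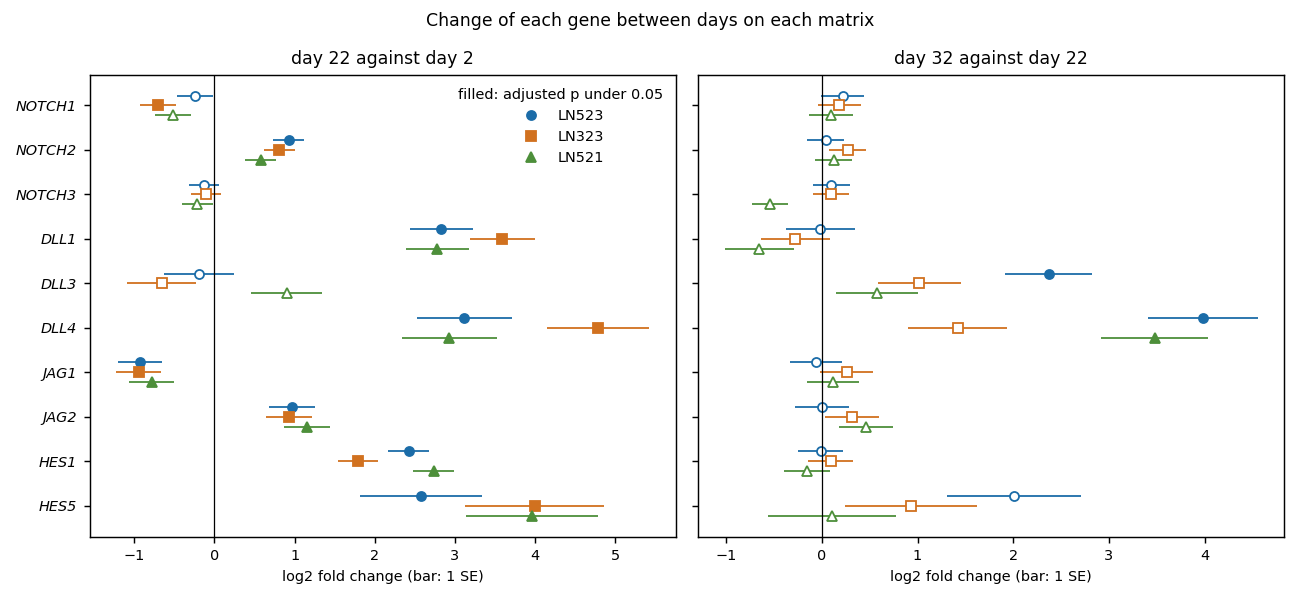
Log2 fold change of each gene between days 2 and 22 (left) and between days 22 and 32 (right) on each matrix, with bars of 1 SE and filled markers for an adjusted p under 0.05 in edgeR. The left panel holds 22 filled markers and the right panel 3, DLL3 on LN523 and DLL4 on LN523 and LN521.

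Between day 22 and day 32 few genes were called, and those of the 10 that were called were Delta ligands. On LN523, DLL3 and DLL4 were called, 2 of 10 genes where 0.381% of all genes were called. On LN521, DLL4 was called, 1 of 10 where the share of all genes was 0.268%, and on LN323 none of the 10 was called where that share was 0.0424%. DLL4 rose by 3.98 ± 0.57 on LN523 (log2, SE, edgeR adjusted p = 3.98e-05) and by 3.48 ± 0.56 on LN521 (adjusted p = 0.00036), and its change on LN323 was 1.42 ± 0.52 (adjusted p = 1). The day 32 libraries lay above the day 22 libraries on all 3 matrices. Without replicate 1 of day 32 the LN521 value was 2.15 (adjusted p = 0.0921). With only the 9 libraries of LN323 in the fit the LN323 value of 1.47 was called (adjusted p = 0.00429). With a stricter expression filter, filterByExpr, the changes of 3.98 and 3.48 kept their size but had adjusted p of 0.079 and 0.122. On the TPM scale with a pseudocount of 0.1 limma gave 4.15 and 2.93, neither called, and with a pseudocount of 1 the LN521 value of 2.64 was not called.

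DLL3 rose by 2.37 ± 0.45 on LN523 (log2, SE, edgeR adjusted p = 0.00259), from the values above to 46, 40.0 and 17.9 CPM. On LN323 it had 12.1, 17.7 and 13.1 CPM at day 32, and on LN521 54.5, 15.0 and 15.3 CPM. The LN523 and LN323 groups of day 32 lay above those of day 22 without overlap, and on LN521 the first library was again high. The changes of 1.02 ± 0.44 on LN323 and 0.57 ± 0.43 on LN521 were not called, and the LN521 value turned to -0.21 without replicate 1 of day 32. The LN523 call was lost without replicate 1 of day 22, at 2.18 (adjusted p = 0.0697), with filterByExpr, at 2.37 (adjusted p = 0.159), with at least 10 counts in every library, at 2.37 (adjusted p = 0.166), and with limma on the TPM scale, at 2.25 and 2.16 (adjusted p = 0.191 and 0.227). HES5 on LN523 went to 7.98, 5.16 and 2.39 CPM, above its day 22 libraries, a change of 2.01 ± 0.70 that was not called (adjusted p = 0.487), while its libraries of day 32 on LN323 and LN521 lay between 1.12 and 1.79 CPM.

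Between matrices few differences of the members were called. At day 2, 1 of 30 comparisons of a member between 2 matrices was called. The log2 difference of DLL1 between LN323 and LN521 was -1.60 ± 0.35 (SE, edgeR adjusted p = 0.000971), in a pair of matrices where 2.5% of all genes were called; the shares were 0.233% for LN523 against LN323 and 0.624% for LN523 against LN521. The DLL1 groups of day 2 overlapped, and the call was lost at -1.51, -0.82 and -1.06 without LN323 replicate 1, LN323 replicate 3 or LN521 replicate 3, and at -1.34 with all 27 libraries in the fit.

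At day 22, 1 of 30 was called, where 0.013% (LN523 against LN323), 0.572% (LN523 against LN521) and 0.616% (LN323 against LN521) of all genes were called. DLL3 was lower on LN523 than on LN521, with a difference of -1.35 ± 0.35 (log2, edgeR adjusted p = 0.0414), with overlapping groups. The difference was -0.32 (adjusted p = 1) without LN521 replicate 1, and the call was lost in 6 of the 9 fits that left out a library of day 22, as well as with DESeq2 (-1.34, adjusted p = 1) and with RLE scaling (-1.34, adjusted p = 0.0941). These were the fits without that library, at -0.87 and -1.61 without LN523 replicates 1 and 3, and at -1.17, -1.35 and -1.16 without LN323 replicates 1, 2 and 3. The other filters, scalings and models that were run did not keep the call either.

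At day 32 none of the 30 was called, where 0% (LN523 against LN323), 0.0609% (LN523 against LN521) and 0.117% (LN323 against LN521) of all genes were called. At an unadjusted p under 0.05 there were 3, 4 and 3 of 10 members in those pairs, beside 1.9%, 5.17% and 4.47% of all genes. DESeq2 called 2 of the 30, where it called 2.09%, 2.09% and 2.03% of all genes. DLL4 was higher on LN523 than on LN323 by 1.70 ± 0.46 (log2, edgeR adjusted p = 0.996), an estimate with 2 SE on either side of 0.77 to 2.63, and its LN523 and LN323 groups did not overlap. HES5 was higher on LN523 by 1.55 ± 0.46 against LN323 and by 1.70 ± 0.47 against LN521 (adjusted p = 1 and 0.258), with every LN523 library above every library of the other matrices, and these were the 2 calls of DESeq2 (adjusted p = 0.031 and 0.0105). DLL3 was higher on LN523 than on LN323 by 1.10 ± 0.33 (adjusted p = 1), also without overlap. DLL4 on LN523 against LN521 differed by 1.22 ± 0.48 (adjusted p = 0.677), with replicate 1 of LN521 among the LN523 libraries, and this difference was called at 1.49 without LN323 replicate 1 (adjusted p = 0.00672).

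Replicate 1 of LN521 at day 32 decided how these differences were judged. Without it, 13 of the 30 comparisons were called, where 2.17% (LN523 against LN323), 4.95% (LN523 against LN521) and 5.57% (LN323 against LN521) of all genes were called. They included DLL4 on LN523 against LN521 at 2.48 (edgeR adjusted p = 2.91e-40) and against LN323 at 1.88 (adjusted p = 6.06e-37). Neither group of the second pair had lost a library. In that fit of 8 libraries the prior degrees of freedom of the spread were infinite, against 19.9 with all 9 libraries, so the test used a spread shared by all genes at one level of expression and not that of DLL4 itself. In the test of matrix by day over all 27 libraries, which asks whether the change over days differed between the matrices, none of the 10 genes was called, where 0.0602% of all genes were. The lowest adjusted p was that of DLL3, 0.471 (unadjusted p = 0.00482), and 3 of 10 had an unadjusted p under 0.05, as did 5.09% of all genes. DESeq2's likelihood ratio test called none of the 10 and 0.377% of all genes. A difference between matrices in the rise of DLL4 or DLL3 was not shown.

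**Figure D4:**
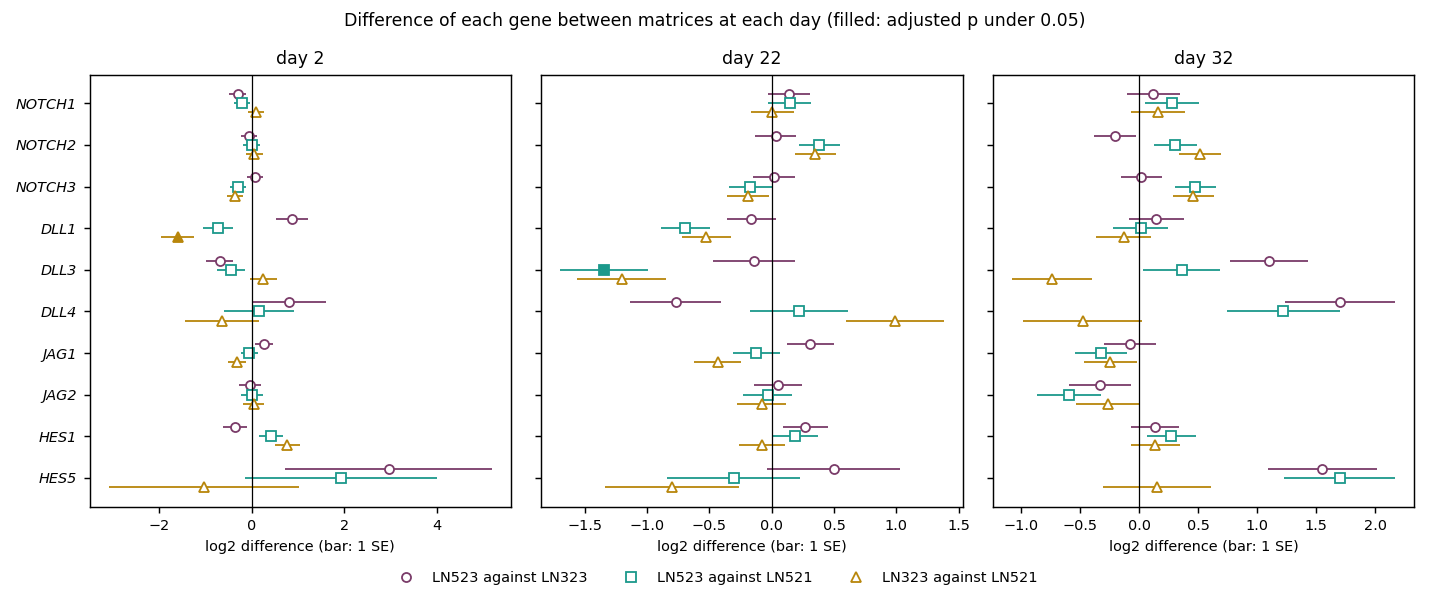
Log2 difference of each gene between each pair of matrices at days 2, 22 and 32, with bars of 1 SE and filled markers for an adjusted p under 0.05 in edgeR. The only filled markers are DLL1 (LN323 against LN521, day 2) and DLL3 (LN523 against LN521, day 22), and at day 32 DLL4, DLL3 and HES5 lie to the right for LN523 against LN323.

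Of 49 other genes of the pathway, 25, 27 and 23 were called between days 2 and 22 on LN523, LN323 and LN521, where 21.7%, 22.7% and 18.9% of all genes were called. Of them 17, 18 and 16 were higher, beside 11.5%, 11.8% and 10.8% of all genes. The remaining 8, 9 and 7 were lower, beside 10.2%, 10.9% and 8.09% of all genes. The median change of the 49 was 0.27, 0.40 and 0.40 on the log2 scale, against 0.02, 0.02 and -0.02 over all genes. The list held 4 other receptors and ligands, 5 glycosyltransferases, 4 ligand ubiquitin ligases, 9 proteases, 11 nuclear factors, 9 other HES and HEY genes with NRARP, and 7 regulators of receptor turnover. In all, 13 genes were higher and 6 lower on all 3 matrices. DLK1, a non-canonical ligand, rose by 6.27 ± 0.54, 6.10 ± 0.53 and 5.67 ± 0.52 (log2, SE, all called by edgeR). HEY1, a HES-related repressor and a direct Notch target, rose by 4.29 ± 0.48, 4.02 ± 0.47 and 3.65 ± 0.47, and HES4 by 2.88 ± 0.46, 3.65 ± 0.48 and 3.03 ± 0.46.

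Other targets fell. HEY2 changed by -2.88 ± 0.68, -3.72 ± 0.71 and -2.11 ± 0.65 on LN523, LN323 and LN521, and HEYL by -1.99 ± 0.56, -2.39 ± 0.57 and -1.72 ± 0.55 (log2, SE, all called by edgeR). HES3, a HES gene of stem cells and early neuroepithelium, went from group means of 10.4 to 19.8 CPM at day 2 to 0.484 CPM or less at day 22, with no read in the LN523 libraries. NRARP, a target that feeds back on the receptor complex, changed by -1.11 ± 0.31, -1.0 ± 0.31 and -1.02 ± 0.31, and RBPJ, the DNA-binding partner of the receptor fragment, by -1.31 ± 0.22, -1.07 ± 0.22 and -1.08 ± 0.22, all called. These last 2 were chosen after their values were seen. On the TPM scale NRARP was not called on LN523 and LN323, at -0.75 to -0.74 and -0.69 to -0.67 with limma. Left-out libraries ended the NRARP call on LN523 (-0.79 without day 2 replicate 2, -0.95 and -0.84 without day 22 replicates 1 and 2), on LN323 (-0.77 without day 2 replicate 2, -0.60 without day 22 replicate 1) and on LN521 (-0.95 and -0.92 without day 2 replicates 2 and 3, -0.75 without day 22 replicate 3). They ended the HEY2 call on LN521 (-1.86 and -1.97 without day 2 replicates 1 and 3, -1.71 and -1.78 without day 22 replicates 2 and 3). The HEYL call ended on LN523 (-1.51 without day 2 replicate 3, -1.58 without day 22 replicate 3) and on LN521 (-1.42 without day 2 replicate 3, -1.63 and -1.41 without day 22 replicates 1 and 2). HES1, HES4, HES5 and HEY1 thus rose in cultures where HES3, HEY2, HEYL and NRARP fell, all with DAPT in the medium.

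From day 22 to day 32, 3 of the 49 were called on LN523, none on LN323 and 2 on LN521, all higher, where 0.381%, 0.0424% and 0.268% of all genes were called. HES6, which antagonises HES1 and marks cells entering neurogenesis, rose by 3.96 ± 0.50 on LN523 (log2, SE, edgeR adjusted p = 3.7e-06) and by 1.98 ± 0.46 on LN521 (adjusted p = 0.0325), with 1.34 ± 0.45 on LN323 (adjusted p = 0.784). The other calls, named after their values were seen, were MFNG, a Fringe enzyme that modifies receptors, at 2.79 ± 0.58 and DNER, a neuronal Notch ligand, at 1.76 ± 0.35, both on LN523, and DLK2 at 2.60 ± 0.61 on LN521. None of these calls was kept with filterByExpr. On LN521 HES6 was at 1.42 and DLK2 at 1.12, neither called, with the first libraries of both days left out together. Single left-out libraries ended the LN521 calls of HES6 (0.86 without day 32 replicate 1, 2.06 and 1.55 without day 22 replicates 2 and 3) and DLK2 (1.20 without day 32 replicate 1, 2.32 and 2.38 without day 22 replicates 1 and 2). On LN523 they ended those of MFNG (2.83 and 2.56 without replicate 1 of day 22 or of day 32) and DNER (1.35 without day 22 replicate 1).

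Between matrices, SPEN, a co-repressor partner of RBPJ, was lower at day 2 on LN523 (-0.76 ± 0.20, log2, SE) and on LN323 (-0.70 ± 0.20) than on LN521, and HES3 was lower on LN323 than on LN521 (-0.92 ± 0.27). At day 22 HES6 was lower on LN523 than on LN521 (-1.20 ± 0.29), and DTX4, a ubiquitin ligase that acts on receptors, was higher on LN523 (0.68 ± 0.18) and LN323 (0.80 ± 0.18) than on LN521. These 6 differences were called by edgeR and none by DESeq2. Each lost its call in 5 to 7 of the 9 fits that left out a library of that day. The values nearest 0 were -0.34 and -0.28 for SPEN without LN521 replicate 1, -0.17 for HES3 without LN521 replicate 3, -0.17 for HES6 without LN521 replicate 1, and 0.48 and 0.30 for DTX4 without LN523 replicate 1 or LN323 replicate 2. At day 32 and in the test of matrix by day edgeR called none of the 49 genes, with 3, 8 and 3 genes (beside 1.9%, 5.17% and 4.47% of all genes) at an unadjusted p under 0.05 for LN523 against LN323, LN523 against LN521 and LN323 against LN521 and 5 (beside 5.09%) in the test of matrix by day, and DESeq2 called 1 at day 32.

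Proneural genes, which HES repressors hold down, rose in the same interval as DLL4 on LN523 and LN521. Between days 22 and 32 ATOH7, the determinant of retinal ganglion cells, rose by 4.96 ± 0.66 on LN523 and 5.88 ± 0.70 on LN521, and NEUROD1, a factor of photoreceptor and amacrine precursors, by 5.13 ± 0.80 and 3.78 ± 0.73 (log2, SE, all called by edgeR). NEUROD4 rose by 4.58 ± 0.89 and 3.49 ± 0.82 on the same matrices, NEUROG2 rose by 4.06 ± 0.81 on LN523, and NEUROG1 remained at group means of 2.54 CPM or less. With filterByExpr only the ATOH7 rise on LN521 was still called, and DESeq2 did not call NEUROD1 on LN521 or NEUROD4 on either matrix. Without replicate 1 of LN521 at day 32 NEUROD1 was at 2.49 and NEUROD4 at 2.51 there, neither called. The other left-out libraries that ended a call were LN523 day 22 replicate 1 (NEUROG2, 3.46), LN521 day 22 replicate 2 (NEUROD1, 3.44, and NEUROD4, 3.55), LN521 day 22 replicate 3 (NEUROD4, 2.86) and LN521 day 32 replicate 3 (NEUROD4, 3.62).

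By Pearson's r of log2(CPM + 1) over the 27 libraries, among 13957 genes with at least 5 CPM in a group, the genes most like DLL4 were PRDM8 (r = 0.957), NEUROD1 (0.957) and CERKL (0.956). Those most like DLL3 were ONECUT1 (0.936), SEZ6L (0.907) and NHLH1 (0.903). DLL1 was most like TTLL1 (0.956), GREB1L (0.954) and ZNF862 (0.948), HES1 most like ENC1 (0.978), TRAF3 (0.972) and CUEDC1 (0.971), and HES5 most like VSTM2B (0.910), FLYWCH1 (0.908) and DIRAS2 (0.903). For NOTCH2 they were MPPED2 (0.949), KIF26B (0.939) and TGFB3 (0.932). NOTCH1 (MGRN1, 0.856), NOTCH3 (ARID1A, 0.854) and JAG1 (HSPA2, 0.861) had no gene as close. The genes most like JAG2 were HCAR2 (0.952), TRIM29 (0.948) and SCEL (0.935), which are known from squamous epithelium. These values describe libraries that share days, lanes and depth, and mostly restate the difference between day 2 and later days.

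**Figure D5:**
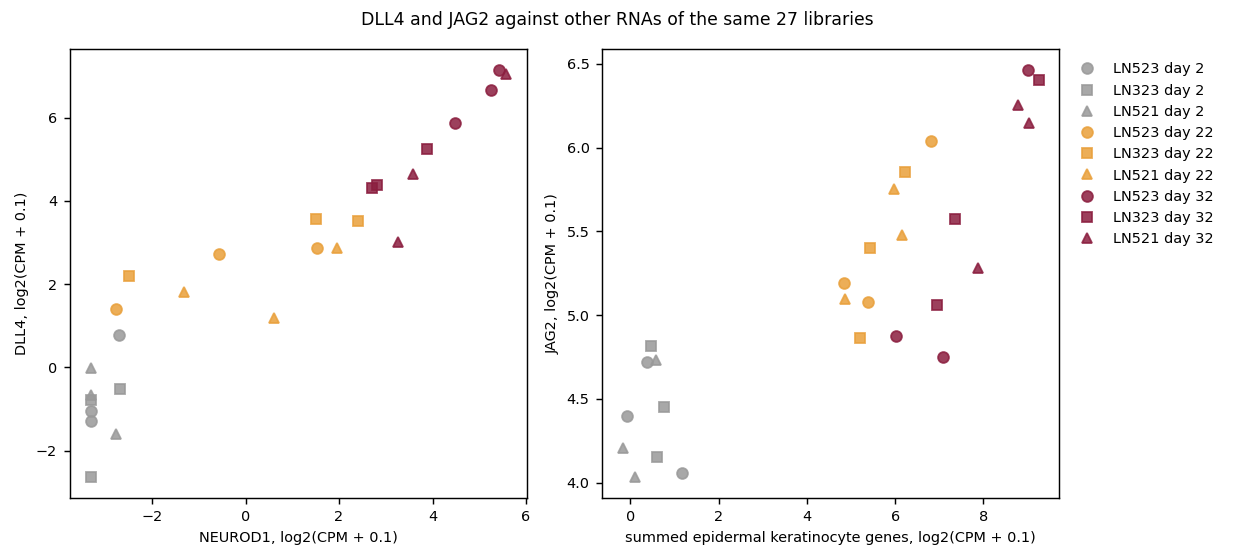
Left, DLL4 against NEUROD1, and right, JAG2 against the summed level of 6 epidermal keratinocyte genes, all as log2(CPM + 0.1), with 1 point per library, colour for the day and marker for the matrix. The LN523 libraries of day 32 and replicate 1 of LN521 are at the top right on the left, and on the right the 4 highest JAG2 libraries have the 4 highest epidermal sums.

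Genes that mark other cell types were set beside the ligands JAG2 and DLL4. The 6 epidermal keratinocyte genes, KRT17, KRT15 and TP63 leading, summed to 0.790 to 2.16 CPM at day 2, 28.7 to 113 CPM at day 22 and 64.3 to 609 CPM at day 32. At day 32 the libraries with the most JAG2 were LN523 replicate 2 (88.2 CPM, epidermal sum 514 CPM), LN323 replicate 2 (84.4 CPM, sum 609 CPM), LN521 replicate 1 (76.3 CPM, sum 437 CPM) and LN521 replicate 2 (70.6 CPM, sum 521 CPM). In the other 5 libraries of day 32 JAG2 was at 26.9 to 47.4 CPM and the sum at 64.3 to 234 CPM. KRT14, a defining gene of basal keratinocytes, stayed at or under 0.84 CPM. The part of epithelial cells in the JAG2 level was not tested.

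For DLL4, which endothelium also makes, 6 endothelial genes summed to 202 to 410 CPM at day 2, mostly KDR and TEK, and to 8.83 to 30.6 CPM at day 32. The defining genes CDH5, EMCN and PECAM1 did not exceed 2.44, 4.12 and 7.15 CPM at day 32. PECAM1 had 0.790 CPM or less at day 2, and at day 32 its highest library on each matrix was also the highest for DLL4, with 3.58 CPM in LN523 replicate 1, 4.43 CPM in LN323 replicate 2 and 7.15 CPM in LN521 replicate 1. EMCN was at 4.12 CPM in that LN323 library. The highest KDR library of day 32 was also that of DLL4 on each matrix. TEK was highest in replicate 3 instead, at 16.5, 12.1 and 4.47 CPM on LN523, LN323 and LN521. CDH5, TIE1 and EMCN were highest in the same library as DLL4 on LN323 and LN521. On LN523 they were highest in replicate 2, at 0.651, 1.79 and 0.217 CPM. The part of endothelial cells in the DLL4 level was not tested. The neuronal sum of 6 genes at day 32 was 297, 288 and 177 CPM on LN523, 92.4, 162 and 118 CPM on LN323, and 426, 94.2 and 90.7 CPM on LN521, and the library highest in its group for DLL4 was also the highest for this sum on each matrix. The 6 pigment epithelium genes, PMEL leading, summed to 414 to 2153 CPM over days 22 and 32, and the part of these cells in the member levels was not tested.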

How the data were processed

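RNA from 27 libraries of H1 cells was prepared with a ribosome-depleted stranded kit. Per the labels and the methods of the study, reads were trimmed with cutadapt, aligned with STAR 2.5.2b to hg38 and counted with featureCounts 1.5.1, and ribosomal and mitochondrial genes were removed. The deposited counts are whole numbers per gene. The authors also deposited TPM values. Gene IDs were paired with symbols through the reference (43052 of 44852). Genes with more than 1 count in sum were tested with edgeR 4.0.16 (R 4.3.3, TMM scaling, quasi-likelihood, adjusted p under 0.05). The lane was a block. Same-lane libraries of LN523 and LN323 deviated together at days 22 and 32, at r of 0.484 to 0.815. At day 2 their r was 0.0955, -0.686 and -0.602 in lanes 1, 2 and 3. Fits used all 27 libraries for days and the 9 libraries of a day between matrices. Of the 44852 genes, 16366 had a mean of at least 1 CPM, and the shares of all genes count the lower ones too. DESeq2 1.42.0, limma 3.58.1 on log2(TPM + 0.1) and log2(TPM + 1), other filters and scalings, and each library left out were alternatives. The scripts were tested on simulated data. The 10 genes, the 49 pathway genes and the marker lists were chosen with earlier results of these data known. Pathway genes named were those with the largest mean change among those called on all 3 matrices. Some results are not reported here. Depth was 25620624 to 47340990 counts a library.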

Additional observations from a re-analysis of the deposited data

How the results depend on the processing

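Of the 22 changes of the 10 genes called between days 2 and 22, 21 were kept with DESeq2, with RLE scaling, with filterByExpr and without the lane, 22 within each matrix alone and without the first LN521 libraries, 18 without lane 2, and 17 and 16 with limma at pseudocounts of 0.1 and 1. Requiring 10 counts in every library kept 15 of the 16 still tested. The 3 calls between days 22 and 32 were kept with DESeq2, RLE scaling, no lane term, single matrices and the libraries of lane 2 left out, and were lost with filterByExpr. Alternatives that left out lane 2, or the first LN521 libraries of days 22 and 32 together, were chosen after seeing the data.

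The share of all genes called also depends on the setting. For LN523 against LN521 at day 32 it was 0.0609% in the main fit. It was 2.09% with DESeq2 and 4.95% without LN521 replicate 1 of that day. Such shares are not given for most settings below, so the counts are not a result about these genes alone. Counts of the 10 genes called moved as follows. For days 32 and 22 on LN523 (2) they were 0 with the 10-count filter, filterByExpr and limma at 0.1, and 1 with limma at 1. On LN521 (1) they were 0 in those 4 settings, and on LN323 (0) they were 1 within the matrix and 1 without lane 2. On LN521 between days 2 and 22 (7) they were 4 with the 10-count filter, which tested fewer of the 10 genes, and with limma at 1. Their highest number in any setting was 8. The fall of NOTCH1 on LN521, not called in the main fit, was called in at least 1 alternative. Between matrices at day 2 (1) they were 0 with all 27 libraries, both filters and both limma fits, 2 without the lane and 5 without lane 2. At day 22 (1) they were 2 without the first LN521 library and 0 in every other alternative but left-out libraries. At day 32 (0) they were 2 with DESeq2, 4 in fits of each pair alone and 13 without the first LN521 library. For matrix by day (0) they were 3 without lane 2 and 1 without the first LN521 libraries. Counts of pathway genes for days 32 and 22 were 0, 0, 0 and 1 on LN523 (3) in those 4 settings. On LN521 (2) they were 0 there, without the lane and without the first LN521 libraries, 1 with DESeq2 and RLE, 4 within the matrix and 5 without lane 2. On LN323 (0) they were 2 within the matrix and 1 without lane 2 or the first LN521 libraries. Between matrices at day 2 (3) they were 0 with all 27 libraries, both filters, DESeq2 and limma, 1 in pairs and 8 without lane 2. At day 22 (3) they were 0 in those and without the lane, and 1 in pairs and with RLE. At day 32 (0) they were 1 with DESeq2, 7 in pairs and 17 without the first LN521 library, and for matrix by day (0) they were 4 without lane 2 and 1 without the first LN521 libraries.

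Leaving out 1 library gave 5 to 7, 6 to 8 and 5 to 7 members called between days 2 and 22 on LN523, LN323 and LN521, and 1 to 2, 0 and 0 to 1 between days 22 and 32. It gave 0 to 5, 0 to 4 and 0 to 13 between matrices at days 2, 22 and 32, and 0 to 1 for matrix by day. For pathway genes it gave 22 to 27, 23 to 29 and 19 to 25, then 1 to 4, 0 and 0 to 2, then 0 to 11, 0 to 7 and 0 to 17, and 0 to 2. The shares of all genes called in these fits are not given beside the ranges.

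Signs turned for changes that were not called. NOTCH1 on LN523 between days 2 and 22 was 0.08 in both limma fits. DLL3 on LN523 was 0.18 without lane 2, 0.23 and 0.20 with limma, 0.00 without the first LN521 libraries, 0.18 without LN523 day 2 replicate 2 and 0.11 without LN523 day 22 replicate 1. DLL3 on LN521 was -0.12 without the first LN521 libraries and -0.04 without day 22 replicate 1, and between days 22 and 32 it was -0.21 without day 32 replicate 1. Over all left-out libraries these DLL3 changes ran from -0.59 to 0.18 on LN523, from -0.04 to 1.51 on LN521 and, between days 22 and 32 on LN521, from -0.21 to 1.65. The cause was not tested.

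Lane numbers paired LN523 with LN323 at day 22 (correlations of 0.484 to 0.815) and at day 32 (0.683 to 0.742), where every pair was over 0.1. No other groups of a day had every pair over 0.1. In lanes 2 and 3 LN521 correlated with LN523 at 0.323 and 0.423 at day 22 and at 0.373 and 0.378 at day 32. In lane 1 these values were -0.167 and -0.233. Deviations from group means of libraries with the same lane correlated at -0.686 to 0.815 within a day (median 0.2, over 0.1 in 17 of 27 pairs) and at -0.279 to 0.598 within a matrix (median 0.0692, 12 of 27). Without the replicate block 7, 8 and 6 members were called between days 2 and 22, and the JAG1 fall on LN521 of -0.71 was the call lost. Between LN523 and LN323 at days 22 and 32 no member was called with or without the block. Low counts of HES5 and DLL4 at day 2 limit the size of their changes.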
